A study of Homo sapiens with 16 samples.

Results

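The mRNAs described here encode the machinery that brings proteins into mitochondria, the TIM and TOM translocases and their partners. They were chosen by gene name alone, as TIMM and TOMM genes with a number, SAMM50, PAM16, the peptidase genes PMPCA and PMPCB, the metaxins MTX1 to MTX3, and GRPEL1 and GRPEL2. Such a name was held by 29 of the 13148 genes deposited, and PAM16 was not among them. Cells of the human line 293S, which derives from embryonic kidney cells, had received 1 mM sodium arsenite for 30 minutes or no treatment. RNA of each condition was separated on a sucrose gradient, which sorts mRNAs by the size of the particles they travel in, and 8 fractions per gradient were sequenced as 1 library each.

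No group had a second library, so no value below has a replicate error or a p-value. The deposited values were the shares of a gene's total over the 8 fractions of 1 gradient. They carry neither an expression level nor a read depth, so a change in the amount of an mRNA cannot be read from them, and the cell line could not be checked against marker genes. Whether fraction 1 was the top or the bottom of a gradient is not stated in the labels. Position means the mean fraction number weighted by the shares. The shift is the position with arsenite minus that in untreated cells, and the relative shift is the shift less its median over all genes, −1.46 fractions. The rule for a move asked for a relative shift of 0.5 fractions or more in either direction, with the same sign after dropping any 1 fraction number from the pair of gradients. None of the 29 mRNAs was listed at 0 in any of the 16 libraries.

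Some values may hold reads of other genes, since no source used here states the strand used in counting. In GENCODE release 29, 13 of the 29 had an exon that overlaps another protein-coding gene, such as PNPLA3 for SAMM50, THBS3 for MTX1, PQBP1 for TIMM17B, ABR for TIMM22, ENTR1 for PMPCA, DNAJC2 for PMPCB, and LNP1 for TOMM70A. Pseudogenes are named after 10 of them, with 6 for TOMM22 and 4 for TOMM20. TIMM23 has a near copy, TIMM23B, with 96.3% identity over 567 aligned coding bases. The 11 members with none of these were MTX2, MTX3, GRPEL1, TIMM10, TIMM17A, TIMM21, TIMM44, TIMM50, TOMM34, TOMM40 and TOMM7. Pseudogenes and copies under other names, and overlaps with noncoding genes, were not looked for.

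Nearly all mitochondrial proteins are encoded in the nucleus, made on cytosolic ribosomes and imported. The TOM complex is the entry gate of the outer membrane. Behind it, the SAM complex inserts barrel proteins into the outer membrane, small TIM chaperones carry hydrophobic precursors across the intermembrane space, and the TIM22 and TIM23 complexes pass precursors into or through the inner membrane. A motor on the matrix side pulls TIM23 cargo inward, and a processing peptidase removes the targeting presequence.

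Coding sequences of 4 members are shown because they are among the shortest of the set, and untreated position followed coding length, as described further on. They are read from transcripts of GENCODE release 29, which is on GRCh38 and not on the hg19 build of the deposited table, so no coordinates are given. TOMM5 on chromosome 9 and TOMM7 on chromosome 7, with 51 and 55 codons before the stop, lay lowest in the untreated gradient. TIMM8A on chromosome X and TIMM8B on chromosome 11, with 97 and 98 codons, are related small TIM chaperones. Their coding sequences were identical at 59.6% of 272 aligned bases. Capitals mark cysteine codons that stand 4 codons apart, the paired motif of the small TIM family, which a script found at 2 places in each TIMM8 sequence and at none in TOMM5 and TOMM7.
TOMM5: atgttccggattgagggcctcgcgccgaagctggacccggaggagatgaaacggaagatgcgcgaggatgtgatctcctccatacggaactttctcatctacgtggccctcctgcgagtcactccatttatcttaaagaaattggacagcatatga
TOMM7: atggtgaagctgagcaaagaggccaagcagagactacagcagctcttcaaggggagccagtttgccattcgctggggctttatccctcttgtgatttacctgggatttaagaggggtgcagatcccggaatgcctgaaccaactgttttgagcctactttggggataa
TIMM8A: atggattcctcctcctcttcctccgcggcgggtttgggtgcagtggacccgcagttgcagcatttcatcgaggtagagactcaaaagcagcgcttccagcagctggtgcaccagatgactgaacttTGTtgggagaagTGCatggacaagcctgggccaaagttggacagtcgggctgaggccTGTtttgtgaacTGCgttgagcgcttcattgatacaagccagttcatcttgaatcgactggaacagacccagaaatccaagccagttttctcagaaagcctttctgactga
TIMM8B: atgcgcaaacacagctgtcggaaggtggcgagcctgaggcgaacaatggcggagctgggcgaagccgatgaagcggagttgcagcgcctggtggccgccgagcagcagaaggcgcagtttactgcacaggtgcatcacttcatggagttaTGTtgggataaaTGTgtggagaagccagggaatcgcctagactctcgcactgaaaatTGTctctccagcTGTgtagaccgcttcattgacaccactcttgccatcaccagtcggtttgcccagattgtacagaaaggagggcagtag

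With arsenite the import mRNAs lay at a median position of 2.20, against 4.49 in untreated cells, while the medians over all genes were 3.10 and 4.54. In the deposited shares all 29 lay at a lower fraction number with arsenite than without, as did 98.3% of all genes, with shifts from −1.001 fractions for MTX3 to −3.29 for MTX1. With median-of-ratios size factors 25 of 29 did, against 58.8% of all genes, and the median shift of all genes was −0.23. The other 4 then had shifts above 0, at 0.51 for TOMM20, 0.39 for GRPEL2, 0.22 for TOMM40L and 0.11 for MTX3. Such factors level the libraries on the typical gene's share, so a shift common to all genes is largely removed by construction. These counts and signs therefore do not test the general move. Relative to the median gene, 14 of 29 moved lower and none moved higher, where 24.0% of all genes moved lower and 23.6% moved higher. The median relative shift of the set was −0.64, and 24 of 29 lay below the median gene. The share in fractions 5 to 8 was lower with arsenite for all 29, as it was for 95.7% of all genes, with a median of 8.14% with arsenite and 58.6% in untreated cells. Relative to the median gene on this measure, whose share changed by −33.5 percentage points, the 14 mRNAs that moved lower all lay below 0. Above 0 lay 10 others, from 2.91 percentage points for TOMM40L to 24.03 for TOMM7. Of these 10, the relative shift of position was below 0 for 7, namely TIMM8A, TIMM8B, TIMM9, TIMM13, TOMM5, TOMM6 and TOMM22. Except for TIMM9, at 37.9%, these had untreated shares in fractions 5 to 8 from 13.0% for TOMM5 to 30.0% for TOMM22. TOMM7 had 14.4%. A share smaller than the fall of the median gene cannot fall as far, so these mRNAs had to lie above 0. Of the 7, TIMM9 alone could have lain below 0 on this measure. Without fraction 1 the median relative shift was −0.21, with 11 moved lower and 3 higher, where 21.0% of all genes moved each way. With size factors it was −1.01, with 16 lower and 2 higher, where 26.4% and 28.7% of all genes did.

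**Figure D1:**
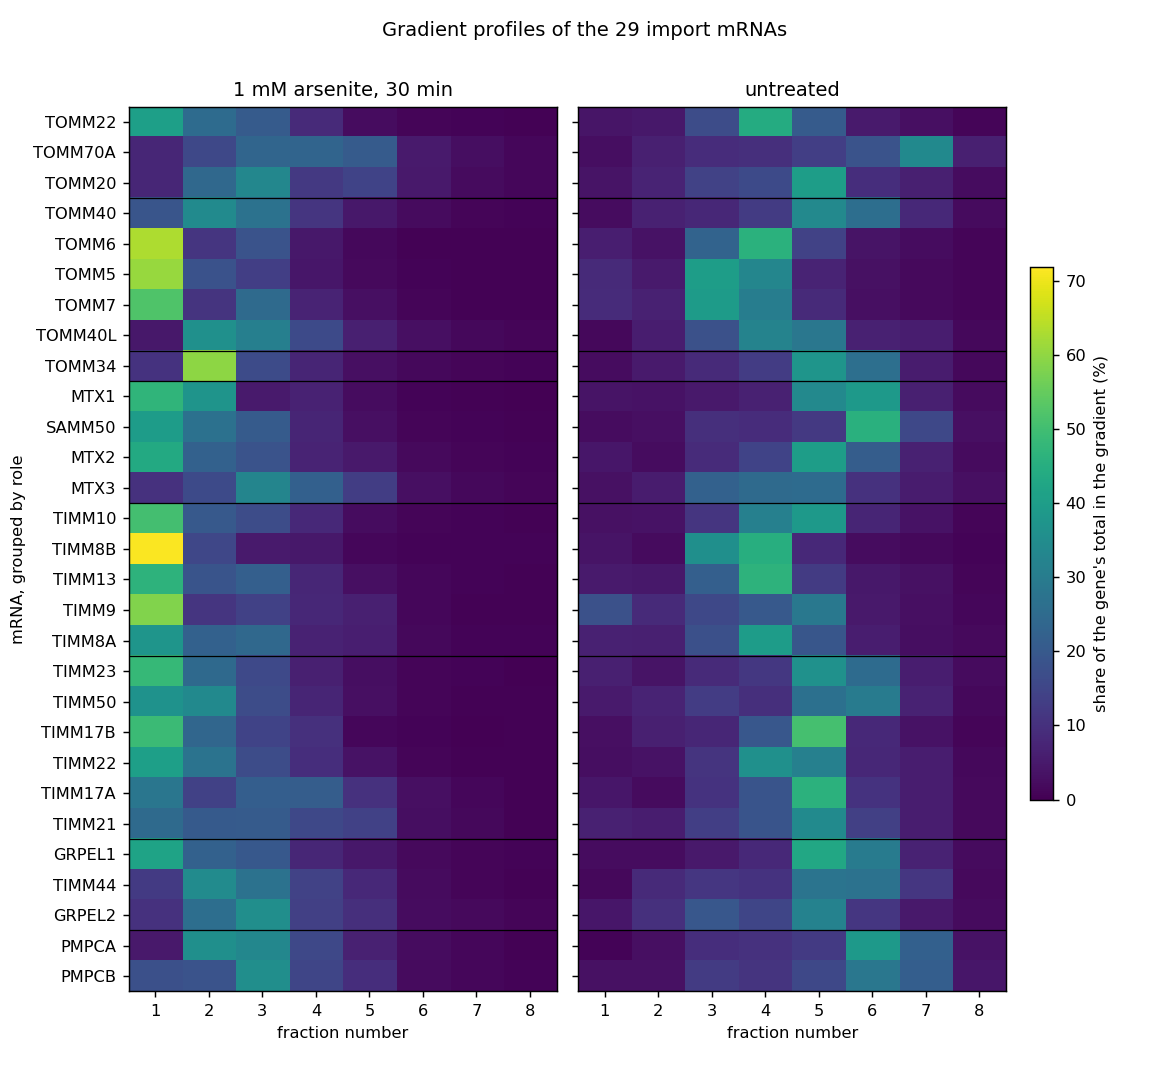
Shares of each import mRNA in the 8 fractions (x axis, fraction number) of the arsenite gradient (left) and the untreated gradient (right), with mRNAs grouped by role and colour giving the share in percent. With arsenite 19 of 29 mRNAs had their largest share in fraction 1, while in untreated cells none did and 14 had it in fraction 5.

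Fraction 1 of the arsenite gradient stood out. It held a median of 39.7% of an import mRNA, while the median over all genes was 9.41%. In the untreated gradient fraction 1 held medians of 3.86% of an import mRNA and 3.47% over all genes. Arsenite fraction 1 was the largest fraction for 19 of 29 import mRNAs and for 14.3% of all genes. The same 19 had at least 25% of their total there, as did 18.8% of all genes. The largest of these shares were those of TIMM8B (71.4%), TOMM6 (63.0%), TOMM5 (60.9%) and TIMM9 (58.3%). In untreated cells the most of any member in that fraction was 17.8%, for TIMM9.

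The receptors of the TOM complex did not meet the rule for a move. TOMM20 and TOMM22 recognise precursors with a presequence, and TOMM70A takes over carrier precursors from cytosolic chaperones. In arsenite fractions 1 to 8, TOMM22 had 40.8, 25.3, 20.8, 8.61, 2.51, 0.996, 0.578 and 0.469% of its total. In the untreated fractions it had 4.18, 4.69, 16.7, 44.4, 20.8, 5.20, 3.05 and 0.981%. The main peak thus stood in fraction 1 with arsenite and in fraction 4 without. TOMM20 had 7.79, 24.3, 33.3, 11.9, 14.5, 4.81, 2.17 and 1.27% with arsenite. Its untreated shares were 3.72, 7.14, 14.3, 16.3, 40.04, 9.54, 6.46 and 2.52%. Little of TOMM20 lay in arsenite fraction 1, unlike TOMM22.

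TOMM22 lay at 2.14 with arsenite and 4.06 without, and TOMM20 at 3.30 and 4.49. Relative shifts of the receptors were −0.46 for TOMM22, −0.36 for TOMM70A and 0.27 for TOMM20. TOMM70A, the longest coding sequence of the set at 1824 nt, lay furthest along with arsenite, at 3.66, against 5.47 in untreated cells, and kept 29.6% in fractions 5 to 8. Single choices moved these values across the threshold. TOMM22 met the rule for a lower position without fraction 3 (−0.69), 6 (−0.57), 7 (−0.63) or 8 (−0.51), but without fraction 1 it lay at 0.04. TOMM70A met the rule without fraction 5 (−0.69) or with size factors (−0.52), while without fraction 7 it lay at 0.09. With size factors TOMM20 lay at 0.74 and met the rule for a higher position, as it did at 0.63 against genes of like coding length, in 10 bins. Against genes of like untreated position, in 20 bins, TOMM22 lay at −0.76 and met the rule for a lower one.

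**Figure D2:**
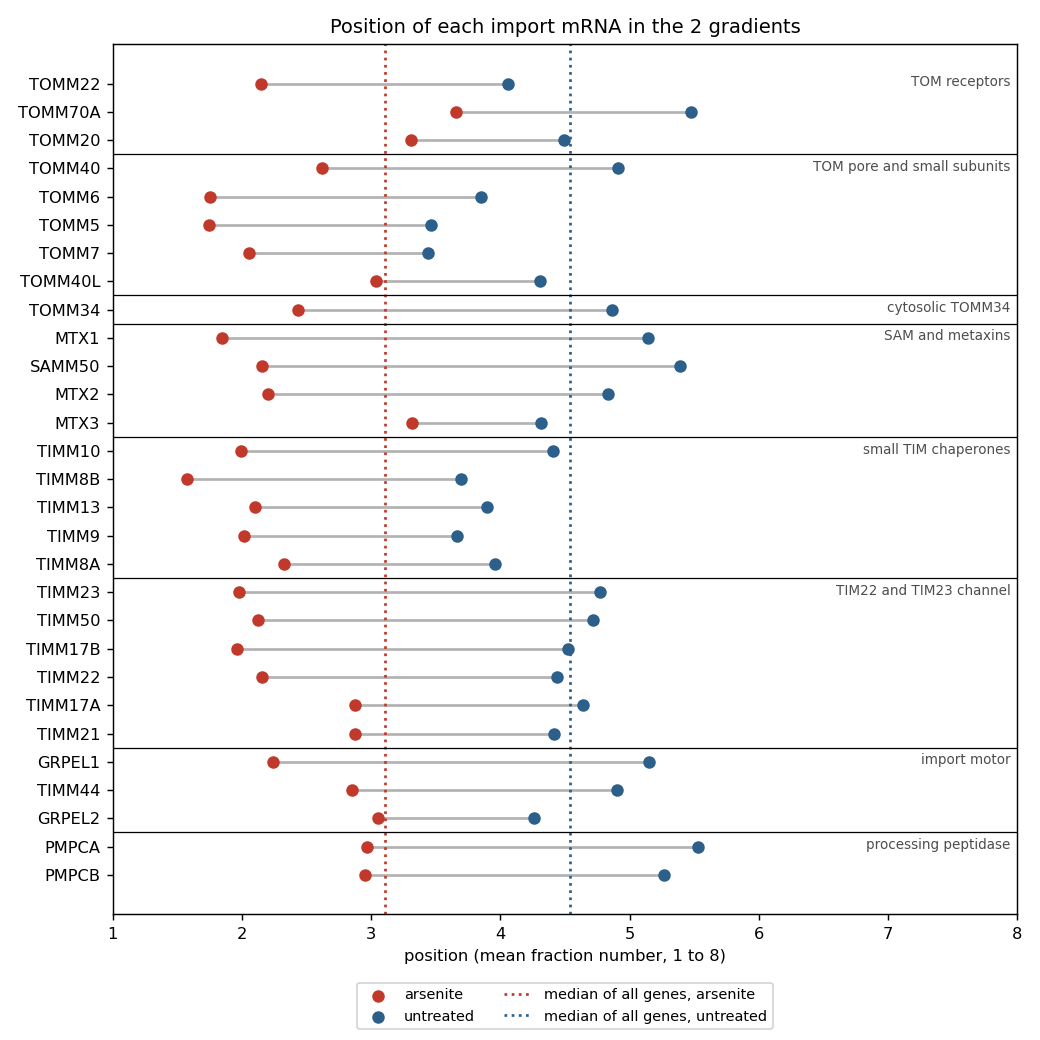
Position (x axis, mean fraction number) of each import mRNA with arsenite (red) and in untreated cells (blue), grouped by role, with dotted lines at the medians of all genes. Arsenite positions ran from 1.57 for TIMM8B to 3.66 for TOMM70A, and untreated positions from 3.44 for TOMM7 to 5.53 for PMPCA.

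TOMM40 is the barrel that forms the import channel. It was the 1 of 5 pore and small subunits that moved lower, near the 24.0% of all genes. Its shares in arsenite fractions 1 to 8 were 18.99, 34.5, 27.2, 11.02, 4.53, 2.10, 1.102 and 0.637%. In the untreated fractions they were 2.38, 6.75, 8.08, 12.4, 33.9, 25.9, 8.36 and 2.15%. It lay at 2.62 with arsenite and 4.91 without, a relative shift of −0.84. TOMM40L, a relative of TOMM40, had 4.69, 36.0, 31.2, 16.3, 6.36, 2.89, 1.65 and 0.887% with arsenite. Without it the shares were 1.68, 5.85, 17.8, 32.3, 28.5, 6.48, 5.84 and 1.55%. TOMM40L held less than TOMM40 in arsenite fraction 1, and its untreated peak stood 1 fraction earlier. It lay at 3.03 with arsenite and 4.31 without, and its relative shift was 0.18.

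TOMM5, TOMM6 and TOMM7 are small subunits that help to assemble and stabilise the channel. They lay at 1.74, 1.76 and 2.05 with arsenite and at 3.46, 3.85 and 3.44 in untreated cells, and from 52.2 to 63.0% of their totals lay in arsenite fraction 1. Their relative shifts were −0.26, −0.64 and 0.07, and none met the rule. The value of TOMM6 passed 0.5 in size but turned to 0.31 without fraction 1. Without that fraction TOMM5 and TOMM7 lay at 0.50 and 0.82 and met the rule for a higher position. Against genes of like untreated position TOMM5 and TOMM6 met it for a lower one, at −1.05 and −1.10, and TOMM7 lay at −0.40 with size factors. TOMM34, a cytosolic co-chaperone in spite of its name, moved lower. In arsenite fractions 1 to 8 it had 10.6, 59.7, 16.4, 7.35, 2.91, 1.41, 0.864 and 0.698% of its total. In the untreated fractions it had 2.40, 5.21, 8.70, 12.7, 37.7, 26.3, 5.35 and 1.64%. Its largest share stood in fraction 2 with arsenite and in fraction 5 without, and it lay at 2.43 with arsenite and 4.87 without. Its relative shift was −0.98, and −0.62 without fraction 2.

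SAM and metaxin mRNAs held the widest spread of relative shifts among the role groups. SAMM50 inserts barrel proteins into the outer membrane, and MTX1 and MTX2 are its partners. MTX1 had 47.1, 37.2, 5.15, 6.86, 2.35, 0.781, 0.394 and 0.149% of its total in arsenite fractions 1 to 8. Its untreated shares were 3.86, 3.64, 4.97, 6.63, 34.0, 38.7, 6.19 and 2.01%. Fractions 5 to 8 held 3.68% of MTX1 with arsenite and 80.9% without. MTX3, a further metaxin, had 10.3, 16.2, 32.7, 22.2, 13.0, 3.04, 1.56 and 0.918% with arsenite. In untreated cells it had 3.30, 5.36, 22.3, 24.97, 25.2, 10.3, 5.57 and 2.97%, a broad profile with no single peak.

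MTX1, SAMM50 and MTX2 moved lower, beside 24.0% of all genes, with relative shifts of −1.84, −1.78 and −1.17. MTX1 and SAMM50 lay at percentiles 0.251 and 0.388 of all genes, the lowest of the 29. MTX1 lay at 1.85 with arsenite and 5.14 without, SAMM50 at 2.15 and 5.39, and MTX2 at 2.20 and 4.83. MTX3 lay at 3.31 and 4.31, and its relative shift of 0.45, the highest of the set, did not meet the rule, although it did without fraction 5 (0.53), by the point of 50% of the total (0.77) and against genes of like coding length (0.70). Without fraction 1 MTX2 lay at −0.57.

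**Figure D3:**
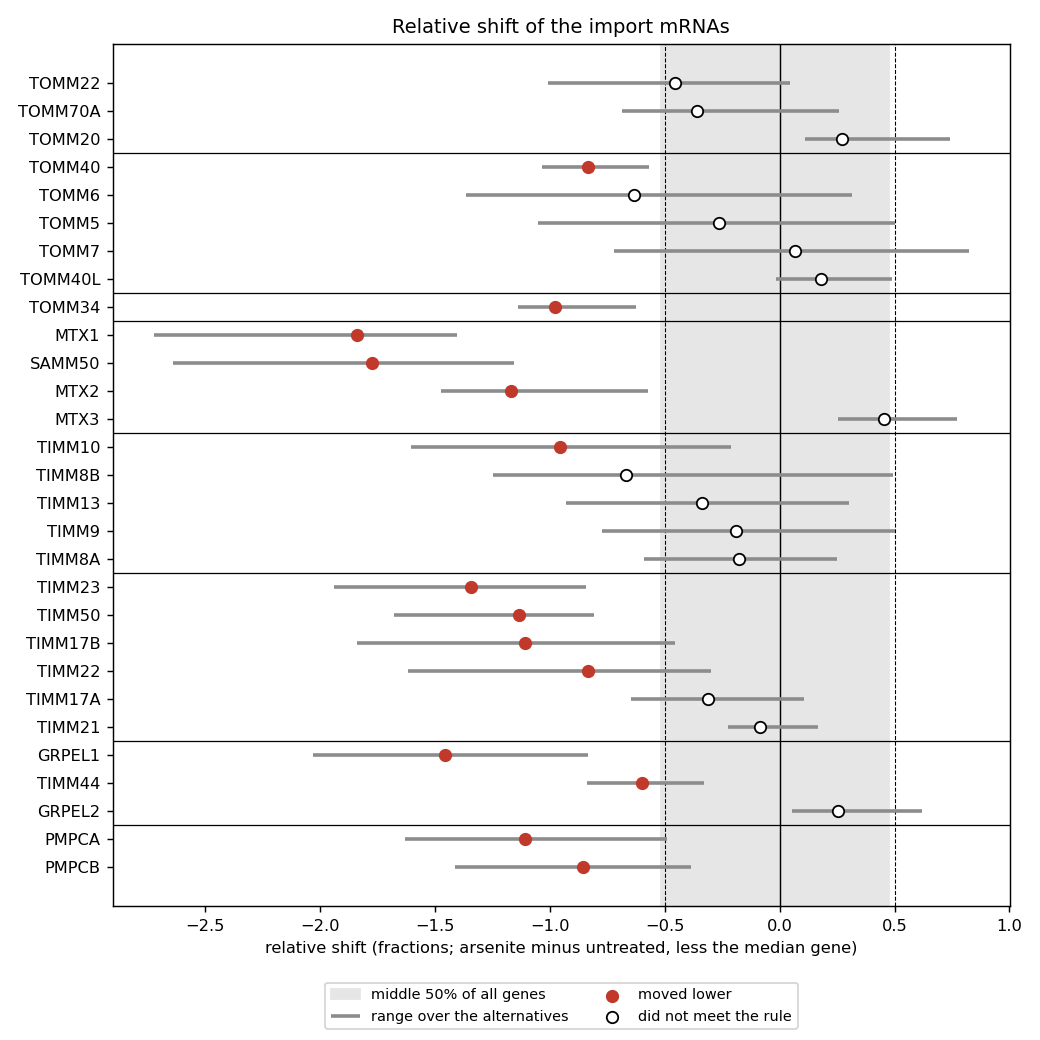
Relative shift (x axis, fractions) of each import mRNA, grouped by role, with filled points for those that moved lower, open points for those that did not meet the rule and grey bars for the range over 14 alternatives. The grey band is the middle 50% of all genes, and dashed lines stand at 0.5 fractions on each side of 0. MTX1 at −1.84 and SAMM50 at −1.78 lie furthest left and MTX3 at 0.45 furthest right.

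Small TIM chaperone mRNAs had low positions in both gradients, from 1.57 to 2.32 with arsenite and from 3.66 to 4.40 without. TIMM9 and TIMM10 form one hexamer, and TIMM8A and TIMM13 another. All 5 mRNAs had their largest share in fraction 1 with arsenite, from 37.5% for TIMM8A to 71.4% for TIMM8B. TIMM10 was the 1 of 5 that moved lower, near the 24.0% of all genes. Its shares in arsenite fractions 1 to 8 were 50.5, 20.2, 16.7, 8.18, 2.35, 0.938, 0.683 and 0.418%. In the untreated fractions they were 3.26, 3.41, 11.1, 31.5, 38.8, 7.34, 3.48 and 1.05%. TIMM8A, at the other end of the group, had 37.5, 22.3, 24.4, 6.76, 6.17, 1.59, 0.679 and 0.598% with arsenite. Its untreated shares of 6.66, 6.39, 17.7, 39.8, 19.3, 5.63, 2.59 and 1.91% peaked in fraction 4, 1 fraction below TIMM10.

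TIMM8B lay lowest of all 29 with arsenite, at 1.57, against 3.70 without, and TIMM9 lay at 2.02 and 3.66. Relative shifts in this group were −0.96 for TIMM10, −0.67 for TIMM8B, −0.34 for TIMM13, −0.19 for TIMM9 and −0.18 for TIMM8A. All 5 lay below the median gene in position, though on the share in fractions 5 to 8 TIMM10 alone did. On that measure TIMM8A, TIMM8B and TIMM13 had to lie above it, since their untreated shares were smaller than the fall of the median gene. Without fraction 1 TIMM8B, TIMM13, TIMM9 and TIMM8A lay above the median gene in position, at 0.50, 0.30, 0.50 and 0.25. TIMM9 then met the rule for a higher position. TIMM10 no longer met the rule without fraction 1 (−0.21), 2 (−1.18, its sign then turning with a further fraction left out) or 5 (−0.56, likewise). With size factors TIMM10 lay at −1.61 and TIMM8B at −1.20. Against genes of like untreated position all 5 met the rule for a lower position, from −0.59 for TIMM8A to −1.25 for TIMM8B. TIMM9 has 3 named pseudogenes and TIMM8B has 2, and exons of TIMM8B overlap those of SDHD on the other strand.

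Of the 6 channel subunits of the inner membrane, 4 moved lower, beside 24.0% of all genes. TIMM22 forms the pore for carrier proteins. TIMM23, with TIMM17A or TIMM17B, forms the channel for presequence proteins, TIMM50 is its receptor and TIMM21 faces the TOM complex. TIMM23 had 48.3, 24.7, 16.01, 6.46, 2.58, 0.985, 0.749 and 0.224% of its total in arsenite fractions 1 to 8. In untreated cells it had 6.24, 3.93, 8.71, 11.6, 36.3, 25.2, 5.86 and 2.07%. Fractions 5 and 6 together thus held most of TIMM23 in untreated cells and little of it with arsenite. TIMM21 had 25.02, 20.5, 20.7, 15.6, 13.8, 2.60, 1.44 and 0.288% with arsenite. Its untreated shares were 6.75, 5.66, 13.2, 18.8, 34.3, 13.6, 5.88 and 1.81%. Its arsenite profile was nearly flat over the first fractions.

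With arsenite these 6 lay between 1.96 for TIMM17B and 2.88 for TIMM21, and in untreated cells between 4.42 for TIMM21 and 4.77 for TIMM23. The relative shifts were −1.34 for TIMM23, −1.14 for TIMM50, −1.11 for TIMM17B, −0.83 for TIMM22, −0.31 for TIMM17A and −0.08 for TIMM21. All 6 had their largest share in arsenite fraction 1. Without that fraction TIMM23 lay at −0.84, while TIMM17B (−0.46) and TIMM22 (−0.30) no longer met the rule, nor did TIMM22 without fraction 2 (−0.998, its sign then turning with a further fraction left out). Without fraction 5 TIMM17B lay at −0.56. With size factors TIMM17B and TIMM22 lay at −1.84 and −1.62, and TIMM17A at −0.65, where it met the rule. Reads of TIMM23 could be split with its copy TIMM23B, so its values are uncertain.

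In the import motor, GRPEL1 and TIMM44 moved lower. TIMM44 anchors the mitochondrial HSP70 at the channel, and GRPEL1 and GRPEL2 exchange the nucleotide of that chaperone. GRPEL1 had 41.8, 22.4, 19.8, 7.81, 4.78, 1.88, 0.867 and 0.618% in arsenite fractions 1 to 8. It had 2.53, 2.40, 4.81, 8.21, 43.1, 29.9, 6.90 and 2.15% in the untreated ones. GRPEL1 had the largest share of the set in fractions 5 to 8 of the untreated gradient, 82.1%, against 8.14% with arsenite. GRPEL2 had 10.2, 26.1, 35.5, 13.5, 9.62, 2.42, 1.79 and 0.945% with arsenite. Its untreated shares were 4.47, 10.0, 19.6, 15.2, 32.0, 11.5, 5.05 and 2.13%.

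GRPEL1 lay at 2.24 with arsenite and 5.15 without, a relative shift of −1.46, and of −0.83 without fraction 1. GRPEL2 lay at 3.05 and 4.26, and its relative shift of 0.25 did not meet the rule, although it did with size factors (0.62) and against genes of like coding length (0.50). Of GRPEL2, 3 pseudogenes are named. TIMM44 lay at 2.85 and 4.90, with a relative shift of −0.60 that fell short of the threshold without fraction 6 (−0.44) and against genes of like untreated position (−0.33).

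Both subunits of the matrix processing peptidase moved lower, beside 24.0% of all genes. PMPCA, the alpha subunit, had 4.92, 35.8, 33.2, 15.6, 6.63, 2.30, 1.17 and 0.313% of its total in arsenite fractions 1 to 8. Its untreated shares were 0.788, 2.87, 9.36, 10.2, 12.3, 38.9, 22.0 and 3.48%. PMPCB, the beta subunit that cuts the presequence, had 17.5, 18.3, 35.7, 15.1, 9.43, 2.19, 1.16 and 0.593% with arsenite. In untreated cells it had 3.24, 3.31, 12.5, 10.8, 15.7, 28.6, 21.6 and 4.33%. Both peaked in fraction 6 of the untreated gradient. PMPCA lay at 2.96 with arsenite and 5.53 without, and PMPCB at 2.95 and 5.26. With arsenite their largest shares were in fraction 2 for PMPCA and fraction 3 for PMPCB, not in fraction 1. The relative shifts were −1.11 and −0.86, and −1.63 and −1.41 with size factors. Set against genes of like untreated position they were −0.49 and −0.38 and did not meet the rule.

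The inner side, taken as small TIM chaperones, channels, motor and peptidase, was set against the outer side of TOM, TOMM34, SAM and metaxins. Of all genes 24.0% moved lower. Of 16 inner-side mRNAs 9 did, with a median relative shift of −0.75, and of 13 outer-side mRNAs 5 did, with a median of −0.46. The difference of the medians was −0.30, and no test of it was possible. Single mRNAs ran from −1.46 to 0.25 on the inner side and from −1.84 to 0.45 on the outer side. The median positions were 2.19 and 2.20 with arsenite and 4.48 and 4.49 without. Limited to members with no overlapping protein-coding gene, named pseudogene or near copy found, a choice made after seeing the data, the difference was 0.06. Against genes of like untreated position it was −0.02, and size factors gave −0.39. Leaving out 1 fraction at a time gave from −0.43 to −0.15. Without TOMM34 it was −0.34, and with the inner side limited to channels and motor −0.38. On the share in fractions 5 to 8 it was −12.02 percentage points. Role groups within a side lay further apart than the sides, with medians on the outer side from −1.47 for SAM and metaxins to −0.26 for the TOM pore and small subunits.

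Related pairs of import mRNAs had unlike arsenite profiles in several cases. TIMM17B and TIMM17A have coding parts of 516 and 513 nt and peaked alike in untreated fraction 5, with 50.7 and 46.3%. With arsenite TIMM17B had 49.0% in fraction 1 and 10.1 and 1.18% in fractions 4 and 5. TIMM17A had 28.3% in fraction 1 and 21.1 and 10.4% in fractions 4 and 5. TIMM17A encodes a short-lived channel subunit known from other work in human cells to be lost when translation is reduced under stress. The relative shift of TIMM17B less that of TIMM17A was −0.80, and it ran from −1.06 to −0.41 when each fraction was left out in turn.

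MTX1 differed most from MTX3, by −2.29 fractions of relative shift, with a range of −2.63 to −1.86 on leaving out fractions. For GRPEL1 against GRPEL2 the difference was −1.71 (−2.11 to −1.01), and for TOMM40 against TOMM40L −1.02 (−1.34 to −0.74). Against genes of like untreated position these 3 differences were −1.74, −1.15 and −0.55, and with size factors −3.06, −2.65 and −1.48. In these 3 pairs the mRNA with the lower relative shift also lay further along in the untreated gradient, by 0.83, 0.89 and 0.60 fractions, so part of each difference was in the untreated profiles. TIMM8B less TIMM8A gave −0.49, which turned to 0.25 without fraction 1, and PMPCA less PMPCB gave −0.25 (−0.45 to 0.08).

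**Figure D4:**
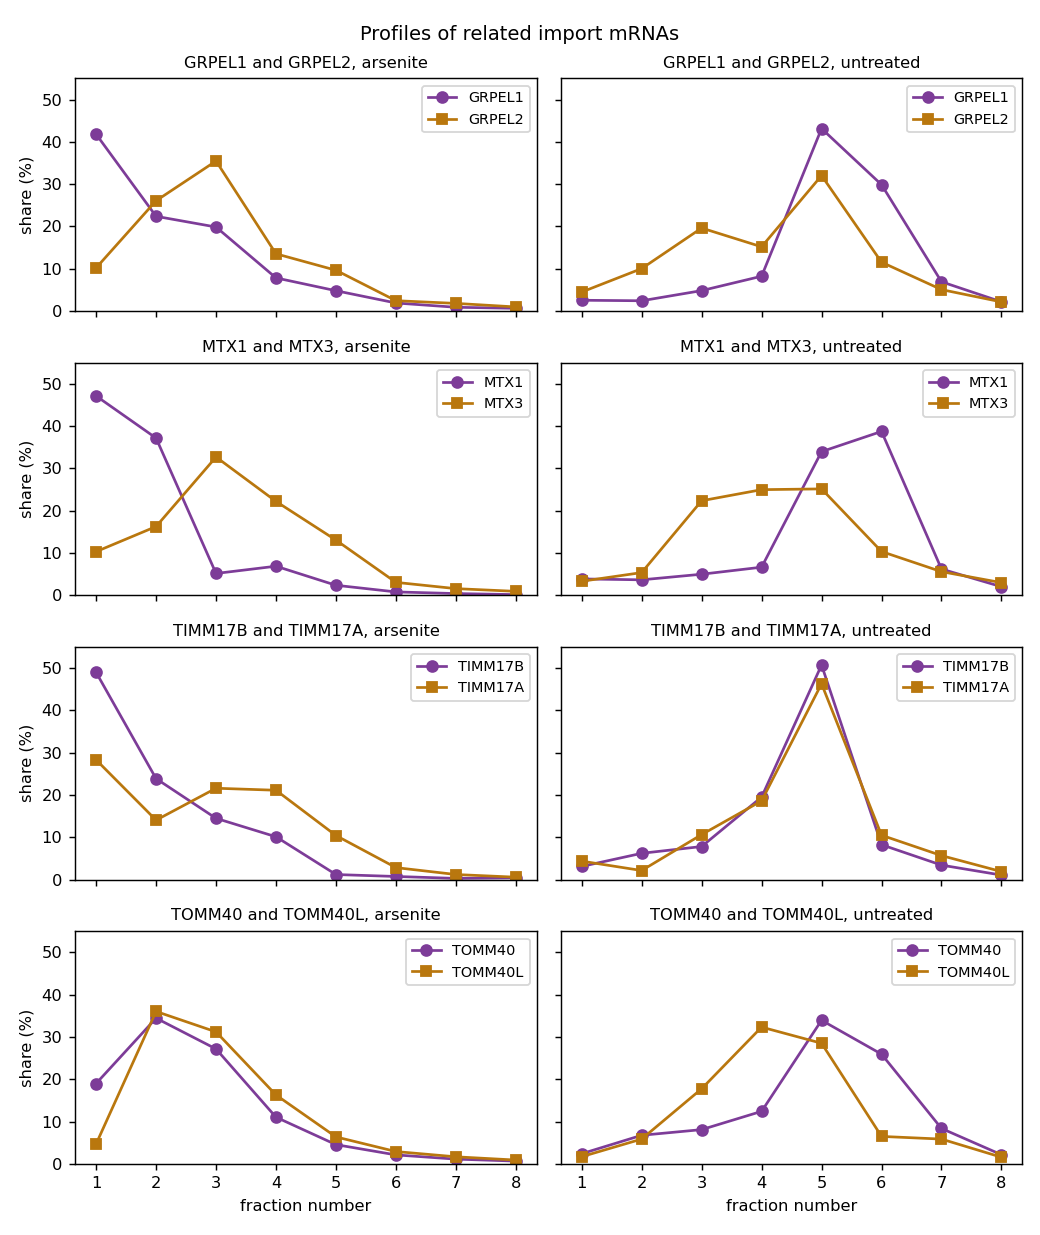
Shares (y axis, percent) in the 8 fractions (x axis, fraction number) for 4 pairs of related import mRNAs, with arsenite on the left and untreated on the right. TIMM17B and TIMM17A nearly coincide in the untreated gradient and differ with arsenite, with 49.0 and 28.3% in fraction 1, whereas TOMM40 and TOMM40L differ mainly in the untreated gradient.

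The untreated positions of the import mRNAs had a higher correlation with coding length than those of all genes, over unlike ranges of length. Across the 29, all measured in the same libraries, the Spearman correlation of coding length with position was 0.55 with arsenite and 0.87 without. Over 13051 annotated genes it was 0.67 and 0.38. The correlation with the length of the whole mRNA was 0.75 with arsenite and 0.44 without for the import mRNAs, and 0.68 and 0.24 for all genes. Annotated coding lengths ran from 153 nt for TOMM5 to 1824 nt for TOMM70A, with a median of 651 nt, against 1425 nt for all genes. Over all genes they ran from 72 to 100269 nt. Genes within the range of the import mRNAs were not correlated apart. The import mRNAs were short as a whole too, with a median of 1725 nt against 3219 nt.

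**Figure D5:**
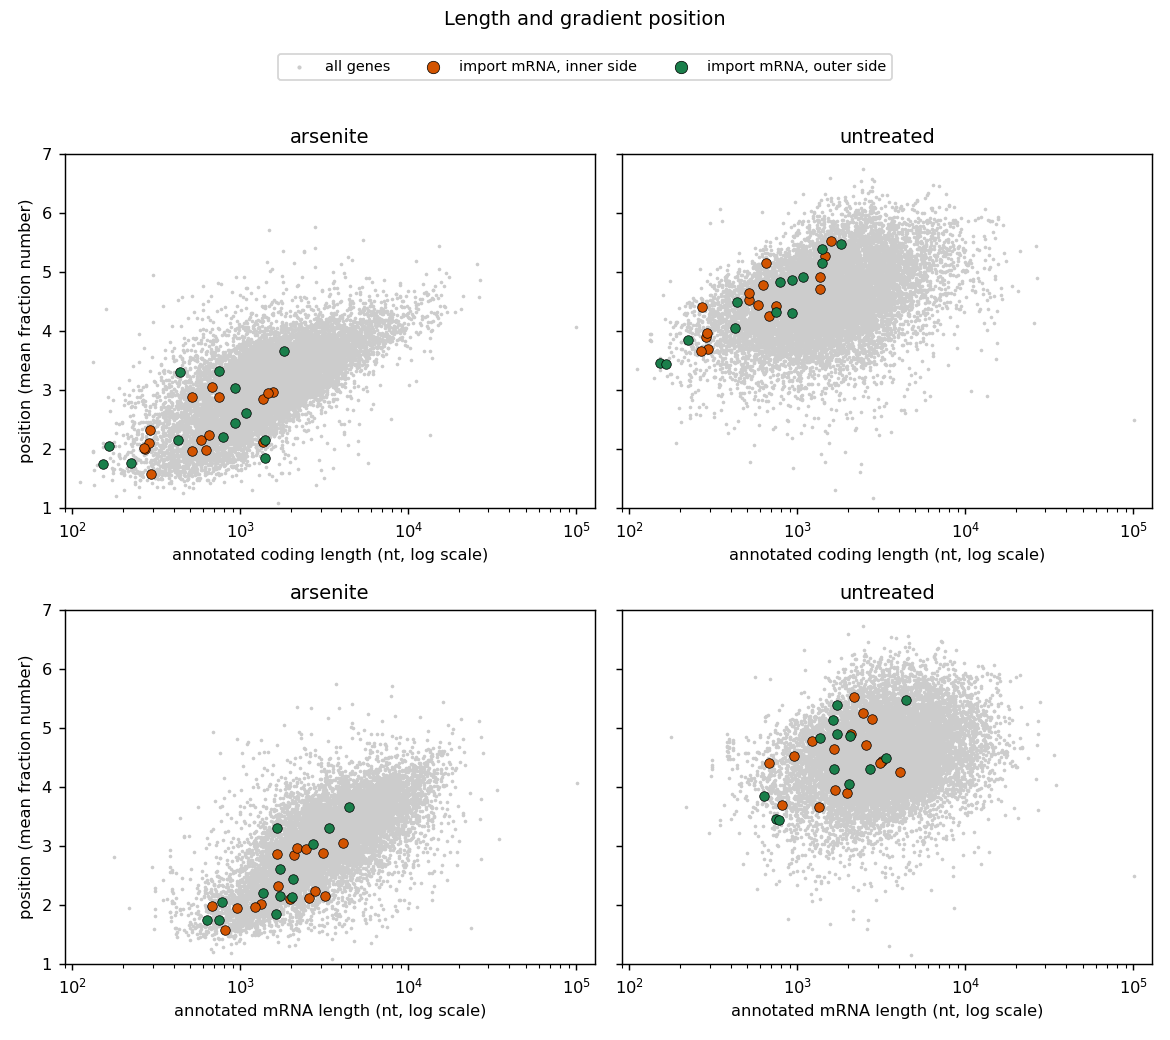
Position (y axis, mean fraction number) against annotated coding length (top) and mRNA length (bottom), both in nt on log axes, with arsenite on the left and untreated on the right, for all genes (grey) and import mRNAs of the inner side (orange) and outer side (green). In the untreated gradient import mRNAs with longer coding parts lie higher, with TOMM5, the shortest, at 3.46 and TOMM70A, the longest, at 5.47.

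Other genes of protein import, and TIMMDC1, which is like the TIM genes in name, were listed apart from the 29. Of 24 listed, 23 were in the table. Of these, 10 moved lower and none higher, beside 24.0% and 23.6% of all genes, with a median relative shift of −0.53. Their median arsenite position of 2.71 was above the 2.20 of the 29. Arsenite fraction 1 held a median of 15.7% of them, against 39.7% of the 29, and was the largest fraction for 8 of 23, against 19 of 29. HSPD1, the chaperonin that folds imported proteins, lay at 2.97 with arsenite and 5.86 without (relative shift −1.43), and HSPA9, the mitochondrial HSP70, at 3.26 and 6.002 (−1.29). Others that moved included the matrix peptidase MIPEP (−1.28), the outer membrane insertase MTCH2 (−1.16), the co-chaperonin HSPE1 (−1.03), TIMMDC1 (−0.95), the presequence-degrading peptidase PITRM1 (−0.83), the insertase OXA1L (−0.65) and DNLZ (−0.53), which was listed at 0 in 1 library. Without fraction 1 HSPE1 (−0.22) and DNLZ (−0.04) fell short of the threshold, as OXA1L (−0.37) did without fraction 6. FXC1, which encodes the small TIM protein TIMM10B, had the highest value, 0.20. CHCHD4, the receptor of the intermembrane space import pathway, had a relative shift of −0.41, and its partner GFER one of 0.17.

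Other mitochondrial groups are given beside the import mRNAs as values only, since their differences could not be tested with 1 library per group. The import mRNAs, with 14 of 29 moved lower and a median relative shift of −0.64, lay between complex I subunits (32 of 39, −1.18) and mitochondrial ribosomal proteins (66 of 76, −0.99) on one side and mitochondrial carriers (10 of 40, −0.06) on the other. None of the complex I and ribosomal protein mRNAs moved higher, and 11 carriers did. Of all genes 24.0% moved lower and 23.6% higher, so the counts of carriers were near the background. The untreated medians of these groups were close, at 4.49 for the import mRNAs, 4.44, 4.57 and 4.24. Arsenite fraction 1 held a median of 39.7% of an import mRNA, 60.3% of a complex I mRNA, 45.0% of a mitochondrial ribosomal protein mRNA and 16.4% of a carrier mRNA. Their median mRNA lengths were 1725, 958, 1396.5 and 2728 nt in the same order, and the part of length in these values was not tested.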

How the data were processed

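RNA of 293S cells was prepared with Trizol and a method named NSR, per the labels. The authors deposited 1 table with exons of RefSeq genes as rows, per the file headers, and per the submitters' processing notes the build was hg19. Its 16 library columns hold the unit fraction, the share of a gene's total in each fraction of a gradient, and the 8 deposited values sum to 1. A further 3 deposited columns hold a score, each gradient's mean fraction number and the difference, which the recomputed positions matched within 8.9e-15. The sources used here do not state aligner, counting, strand, gene filter or scaling of the fractions. Depth is unknown, so no interval is given.

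Samples were grouped by title, 1 library per group. Positions, relative shifts and moves were computed over all 13148 genes. The calls were checked on simulated profiles with known shifts. Those had set read depths and no error between libraries, which need not match these data. Every member is named, and all 16 shares are printed for the member with the highest and the lowest relative shift of each role group. Lengths and sequences are from 1 GENCODE release 29 transcript per gene, paired with a RefSeq mRNA where possible, then the principal, then the longest coding one. Coding length leaves out the stop codon. Symbols matched for 13051 genes (99.3%), 735 by an older symbol. Alternatives were size factors, a pseudocount of 1 percentage point, leaving out each fraction, thresholds of 0.25 and 1, the point of 50% of the total, the share in fractions 5 to 8, genes with no 0, bins of untreated position (20) or coding length (10), and other memberships. Members, lists and related pairs were chosen with earlier results of these data known. Values of 1 of the other import genes are not reported here. Python 3.11.15, numpy 2.4.6, pandas 2.3.3, scipy 1.17.1 and Biopython 1.88 were used.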

Additional observations from a re-analysis of the deposited data

How the results depend on the processing

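Of 406 values of single import mRNAs under the alternatives in fractions, 372 kept their result under the rule. The rule was newly met by 22 and no longer met by 10. The other 2, TIMM9 and TOMM5, met it against the sign of their main value, both at 0.50 without fraction 1. Values that changed sign without meeting the rule are among the 372. For example, without fraction 1 TIMM8B went from −0.67 to 0.495 and TOMM6 from −0.64 to 0.31. The median relative shift of the set, −0.64, fell short of 0.5 in size without fraction 1 (−0.21) and against genes of like coding length (−0.47). The count moved lower was 14 of 29 (24.0% of all genes) and 8 of 29 at a threshold of 1 fraction (9.33%). It was 7 of the 11 members with no overlapping protein-coding gene, named pseudogene or near copy found, an alternative added after seeing the data. None moved higher in the deposited shares (23.6% of all genes). Counts of 1 came without fraction 5 (23.7%) and by the point of 50% of the total (26.8%), of 2 with size factors (28.7%), and of 3 without fraction 1 (21.0%), at a threshold of 0.25 (34.8%) and against genes of like coding length (22.5%). The cause was not tested. The difference of inner from outer side stayed under 0.5 fractions in size under each alternative in that unit and had the opposite sign in those 11 members. With size factors, which largely remove a shift common to all genes by construction, the median shift of all genes was −0.23. Untreated median positions moved by less than 0.5 fractions. Depth limits every share to an unknown degree. No paired analysis was possible because each group holds 1 library.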

Other observations

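Among the import mRNAs, the part of the mRNA outside the coding sequence differed from the coding part mainly in how it went with untreated position. Across the 29 import mRNAs, which share their libraries, its annotated length had a Spearman correlation of 0.62 with position with arsenite and −0.07 in untreated cells. Over 13051 genes these values were 0.37 and 0.03. For coding length they were 0.55 and 0.87 among the import mRNAs, and 0.67 and 0.38 over the 13051 genes. The share in arsenite fraction 1 had a Spearman correlation of −0.79 with the length of the whole mRNA among the import mRNAs, and of −0.48 over all genes. On the outer side alone, over 13 mRNAs, it was −0.91, and on the inner side, over 16, −0.69. With coding length and noncoding length this share correlated at −0.68 and −0.56 among the import mRNAs, and at −0.53 and −0.26 over all genes. On the outer side these values were −0.53 and −0.76, and on the inner side −0.78 and −0.41. The relative shift correlated with the noncoding length at 0.54 among the import mRNAs and at 0.31 over all genes. With coding length it correlated at −0.41 among the import mRNAs and at 0.26 over all genes. TOMM20 and GRPEL2, with annotated mRNAs of 3387 and 4089 nt around coding parts of 435 and 675 nt, had 7.79 and 10.2% of their totals in arsenite fraction 1, while TIMM17B and TIMM23, with mRNAs of 950 and 1222 nt, had 49.0 and 48.3%. TIMM22 and GRPEL1 went the other way, with mRNAs of 3194 and 2775 nt and 40.7 and 41.8% in that fraction.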
